A study of Mus musculus with 24 samples.

Results

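The genes described here encode the V0 sector of the vacuolar H+-ATPase (V-ATPase) and its accessory proteins. They were chosen by name, with earlier results of these data known. They comprised 8 of the 55487 genes in the table: Atp6v0a1, Atp6v0a2, Atp6v0b, Atp6v0c, Atp6v0d1, Atp6v0e, Atp6ap1 and Atp6ap2. All 8 passed the filter on low counts and were tested among 15401 genes, and the lowest count of any of them in any library was 780. In WT cells, MK-8722 raised 7 of the 8 genes, where 10.3% of all tested genes were raised. Torin1 in WT raised Atp6v0b, Atp6v0d1 and Atp6ap2 and lowered Atp6v0a2, near the shares over all genes (26.6% and 20.5%). In cells labelled Tfeb/Tfe3 knockout, torin1 raised none of them and lowered 5 (all genes: 23% and 20.2%). MK-8722 raised none there either, which is near the share over all genes (5.47%).

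The study measured polyadenylated RNA in mouse embryonic fibroblasts (MEFs), which are cultured connective tissue cells, to ask how loss of Tfeb and Tfe3 alters the transcriptional response to torin1, an inhibitor of MTOR, and to MK-8722, an activator of AMPK. The 6 groups held 4 libraries each: WT with DMSO (the vehicle), WT with torin1, WT with MK-8722, and Tfeb/Tfe3 knockout (DKO) cells with the same 3 treatments. The libraries of a group came from different passages, 7, 8, 9 and 11 for WT and 8, 9, 10 and 11 for DKO, all in batch 1. Since the labels name a genotype but no clone, and dose and time are not among them, p-values here measure the spread between passages, and a difference between DKO and WT cannot be told apart from any other difference between the 2 cell populations.

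The V-ATPase is a rotary pump that uses ATP to acidify lysosomes, endosomes and the Golgi. Its V1 sector lies in the cytosol and hydrolyses ATP, and its V0 sector lies in the membrane and carries protons. Within V0, a ring of proteolipid subunits turns against the a subunit, subunit d joins the ring to the central stalk, and the accessory proteins ATP6AP1 and ATP6AP2 take part in assembling V0. TFEB and TFE3 are transcription factors that bind CLEAR elements, which hold the E-box CACGTG, near many lysosomal genes, and MTORC1 on the lysosome holds TFEB in the cytosol by phosphorylating it.

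Promoter sequence was available from RefSeq (build GRCm38.p6, 250 bases before to 50 bases after each start) for 7 of the 8 genes matched by symbol, all but Atp6v0a2. CACGTG, which reads the same on both strands, was present in 3 of these 7 (Atp6v0b, Atp6v0d1 and Atp6v0e). Over all genes in the promoter table, 8.09% held it (7.15% of 32851 windows). Among other V-ATPase genes with a window, 2 of 5 assembly factors (Vma21 and Ccdc115) held CACGTG. It was in 1 of 9 V1 sector genes (Atp6v1a) and in 0 of 3 other V0 isoforms. The longer words TCACGTGA and GTCACGTG, each searched on both strands and each containing CACGTG, were in 2 of 7 (Atp6v0d1 and Atp6v0e) against 1.12% of all genes and in 2 of 7 (Atp6v0b and Atp6v0d1) against 2.55%. The 4 stretches below run from 150 bases before to 30 bases after the RefSeq start, with CACGTG in capitals. They are the 3 with the word and Atp6ap2, which rose with both drugs in WT and whose window does not hold these letters.
Atp6v0b, chr4:117887300-117887479, minus strand: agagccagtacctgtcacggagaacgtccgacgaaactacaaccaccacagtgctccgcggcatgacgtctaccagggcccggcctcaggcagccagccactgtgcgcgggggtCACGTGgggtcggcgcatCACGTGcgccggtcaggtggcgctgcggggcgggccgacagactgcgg
Atp6v0d1, chr8:105566035-105566214, minus strand: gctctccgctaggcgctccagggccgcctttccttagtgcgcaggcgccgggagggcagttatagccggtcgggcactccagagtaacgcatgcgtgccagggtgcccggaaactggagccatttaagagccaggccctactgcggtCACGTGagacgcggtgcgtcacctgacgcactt
Atp6v0e, chr17:26676246-26676425, plus strand: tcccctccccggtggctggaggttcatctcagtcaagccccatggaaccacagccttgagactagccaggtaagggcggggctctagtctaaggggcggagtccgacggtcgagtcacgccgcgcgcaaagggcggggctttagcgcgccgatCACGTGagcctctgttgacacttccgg
Atp6ap2, chrX:12587609-12587788, plus strand: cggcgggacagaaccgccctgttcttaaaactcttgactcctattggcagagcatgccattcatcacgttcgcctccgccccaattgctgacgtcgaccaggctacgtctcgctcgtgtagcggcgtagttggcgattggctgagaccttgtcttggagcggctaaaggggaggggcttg
In Atp6v0b the word began 36 and 18 bases before the start, in Atp6v0d1 it began 3 bases before it, and in Atp6v0e it began at base 4 of the transcript. The windows of Atp6v0e and Atp6v0a1 lie inside the spans that GENCODE gives these genes and do not reach their GENCODE starts. The absence of the word in Atp6v0a1 therefore holds for its RefSeq window only. A match describes the letters only, and occupancy by any factor was not measured in these data.

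Total counts per library were 24668921 to 33332562, and the biological coefficient of variation over all tested genes was 10.7%. RNA integrity numbers ran from 7.9 to 9.9, and 1 library was under 9.7, DKO_MK8722 replicate 3 at 7.9. Tfeb stood at 22.9 ± 1.74 CPM (counts scaled to the library's total after TMM, mean ± SD, n = 4) in WT with DMSO and 2.25 ± 0.289 in DKO with DMSO, and its ranges did not overlap between genotypes under any treatment. Tfe3 was not lower in DKO: its ranges overlapped with DMSO (120.2 ± 1.17 CPM in WT and 124 ± 2.11 in DKO), and it was higher in every DKO library under torin1 (80.5 ± 3.26 and 92.4 ± 2.88 CPM) and under MK-8722 (98.5 ± 2.9 and 116 ± 1.39 CPM). Its log2 differences under the drugs, 0.20 and 0.23, did not reach the fold change of 1.2 used for calls, and only the Tfeb part of the knockout label is checked by RNA level. The 8 fibroblast markers summed to 5739 to 9801 CPM, although Thy1 was at most 0.04 CPM in DKO. Of 7 macrophage and osteoclast markers, Adgre1 and Calcr had 0 counts in every library and 6 averaged under 1 CPM. The exception, Cd68, which encodes a lysosomal membrane protein, was at 1.54 to 2.24 CPM in WT with DMSO and 10.1 to 14.3 CPM in WT with MK-8722. The 4 endothelial markers summed to at most 1.37 CPM and the 5 epithelial markers, of which Krt8 was above 1 CPM, to at most 14.5 CPM. The 3 WT libraries of passage 11 (1 per treatment) stood apart: their deviations from the group means correlated at a median r of 0.55, against medians of 0.05 to 0.21 within the other passages. Calls on the 8 genes that changed without them are given beside the result.

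Per-length levels differed widely between the genes. In TPM (counts scaled by transcript length and library), Atp6v0c was the highest of the 8 in every group, at 494 ± 7.79 in WT with DMSO (mean ± SD, n = 4). It was followed by Atp6ap1 (144 ± 6.78), Atp6v0e (107 ± 1.54), Atp6v0b (89.1 ± 2.52), Atp6v0d1 (66.4 ± 3.61), Atp6v0a2 (29.2 ± 0.581), Atp6v0a1 (24.1 ± 1.8) and Atp6ap2 (22.3 ± 0.767). Only Atp6v0a1 and Atp6ap2 overlapped as neighbours in that order. The order changed with treatment. Atp6v0b was 4th in WT with DMSO and 2nd in WT with MK-8722, where it reached 266 ± 9.16 TPM. In DKO with torin1 Atp6v0c fell to 281 ± 11 TPM and came close to Atp6ap1 (257 ± 13 TPM), although their ranges still did not overlap.

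**Figure D1:**
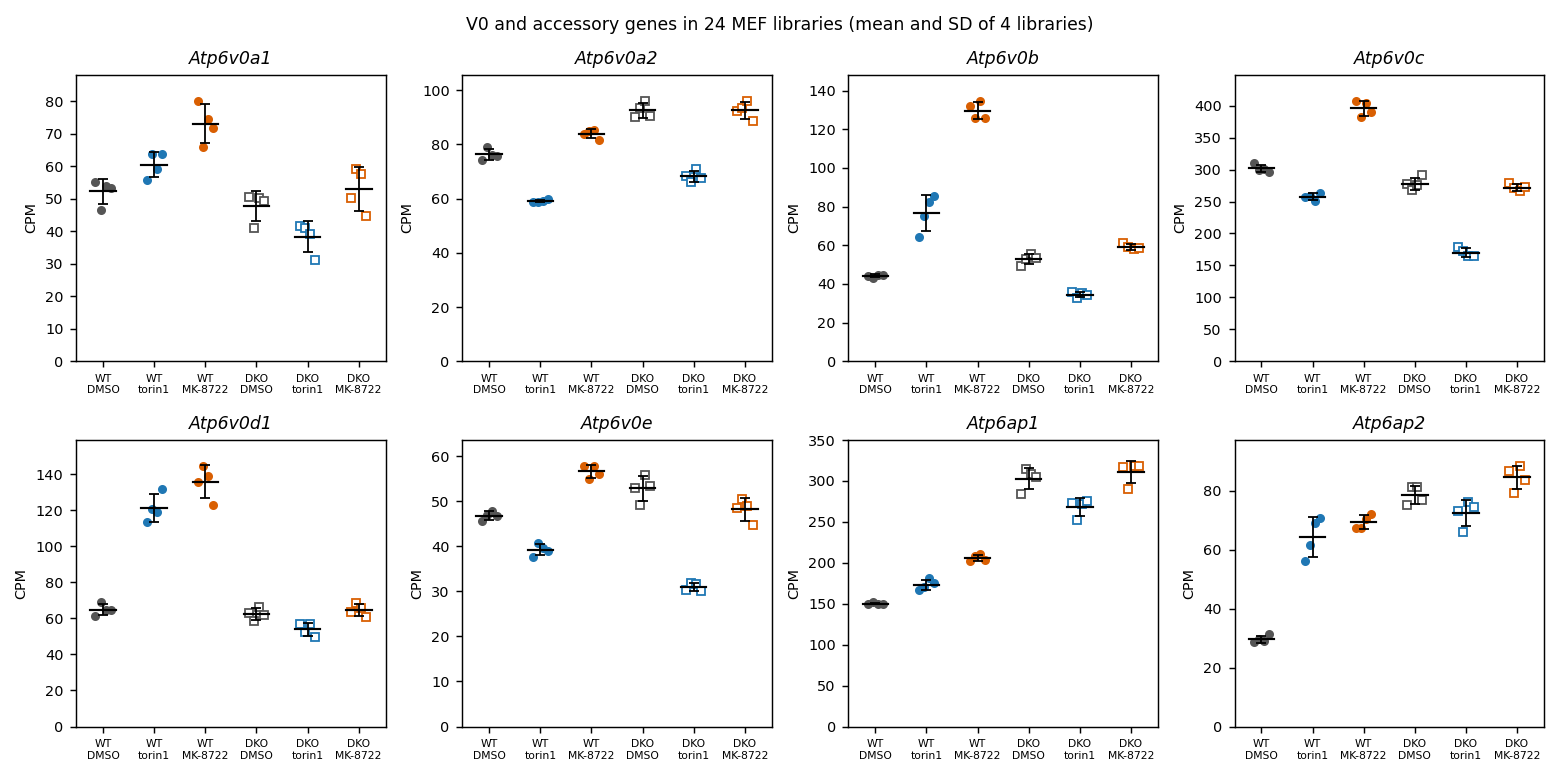
Level in CPM (y axis from 0, scaled per panel) of each V0 and accessory gene in 24 libraries; points are libraries, filled circles WT, open squares DKO, bars the mean and SD of 4 libraries. Atp6v0b, Atp6v0d1 and Atp6ap2 rose with both drugs in WT. Atp6v0b, Atp6v0c, Atp6v0d1 and Atp6v0e were lowest in DKO with torin1, as was the mean of Atp6v0a1.

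Calls required a fold change of at least 1.2 together with an adjusted p (Benjamini-Hochberg, edgeR's quasi-likelihood test) below 0.05. With torin1 in WT, 3 of the 8 genes were called higher and 1 lower, where 26.6% of all tested genes were called higher and 20.5% lower. With MK-8722 in WT, 7 were higher and 0 lower, against 10.3% and 5.87% of all genes. Of these 7, Atp6v0a1 and Atp6v0e were not called in a test against a fold change of 1.2. The median log2 fold change of the 8 was 0.21 after torin1 and 0.47 after MK-8722, beside 0.05 and -0.01 over all genes. In DKO, torin1 left 0 called higher and 5 lower (all genes: 23% and 20.2%), with a median of -0.38. MK-8722 in DKO gave 0 calls in either direction (all genes: 5.47% and 3.21%), with a median of 0.04. Without the fold threshold, Atp6v0b (0.17, adjusted p = 0.0488) and Atp6v0e (-0.13, adjusted p = 0.0209) were past the adjusted p in that comparison, these being the 2 genes with an unadjusted p under 0.05, and limma voom and DESeq2 gave 0 calls as well. Within a genotype, torin1 and MK-8722 share their DMSO libraries. In bulk RNA, fewer cells of a kind and less RNA per cell cannot be told apart.

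**Figure D2:**
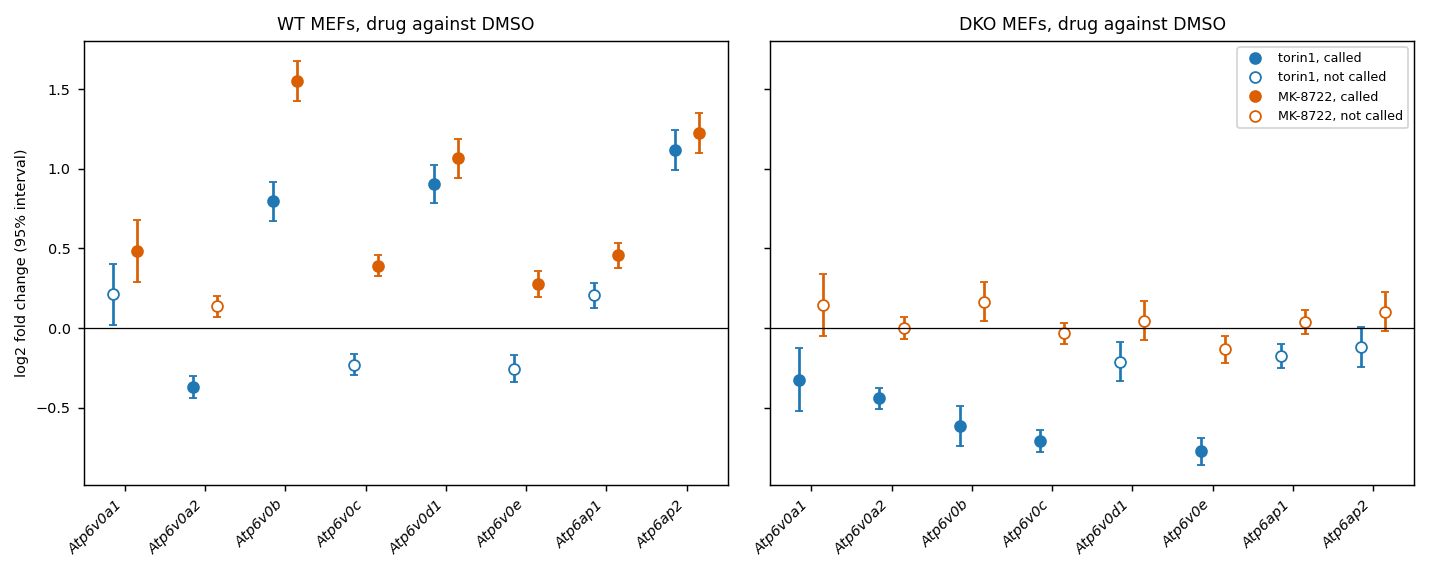
Log2 fold change (y axis) of each gene with torin1 (blue) and MK-8722 (orange) against DMSO, in WT at left and DKO at right, with 95% intervals; filled points were called changed. In WT the MK-8722 points lay between 0.14 and 1.55, whereas all torin1 points in DKO were below 0.

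The proteolipid genes Atp6v0b and Atp6v0c encode the ring. Atp6v0b (chr4:117884326-117887333, minus strand), which encodes the c″ subunit, was at 44.2, 43.2, 44.7 and 44.9 CPM in the 4 WT libraries with DMSO, 64.4, 75.2, 82.2 and 85.2 after torin1 and 131.9, 125.9, 134.8 and 126.0 after MK-8722. The 3 groups did not overlap, and MK-8722 gave the highest levels. Its log2 fold change in WT was 0.80 ± 0.06 SE, adjusted p = 9.99e-11 with torin1 and 1.55 ± 0.06 SE, adjusted p = 1.26e-14 with MK-8722, the latter 2.93-fold. In DKO it was at 49.3, 52.7, 55.4 and 53.5 CPM with DMSO, 35.6, 32.6, 35.3 and 34.4 after torin1 and 61.4, 59.0, 58.0 and 58.5 after MK-8722. All 4 torin1 libraries were below the DMSO libraries (-0.61 ± 0.06 SE, adjusted p = 9.56e-09), so the gene moved in opposite directions with torin1 in the 2 genotypes. With DMSO alone DKO was slightly above WT, 0.25 on the log2 scale, under the fold threshold. That difference was called without DKO_DMSO replicate 1 (0.28).

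Atp6v0c (chr17:24163866-24169702, minus strand) encodes the c subunit that makes up most of the ring. It was at 309.8, 300.0, 300.9 and 296.6 CPM in WT with DMSO, 257.3, 259.0, 250.5 and 263.0 after torin1 and 408.0, 381.9, 403.9 and 390.1 after MK-8722. All torin1 libraries lay below the DMSO libraries, with a log2 fold change of -0.23 (adjusted p = 1.51e-06) that did not reach the fold threshold, and all MK-8722 libraries lay above them (0.39 ± 0.03 SE, adjusted p = 2.38e-09). Without the passage 11 WT libraries the torin1 value was -0.26 and was called. In DKO the values were 276.7, 267.9, 275.2 and 291.3 CPM with DMSO, 178.3, 172.0, 165.5 and 164.7 after torin1 and 278.4, 270.9, 266.2 and 272.0 after MK-8722. Torin1 lowered it 1.63-fold (-0.71 ± 0.03 SE, adjusted p = 4.27e-14), and MK-8722 left it within the range of the DMSO libraries or just below (-0.03, adjusted p = 0.553, 95% interval -0.10 to 0.03). Of the 52-base words in its leading transcript, 32.0% also occur in the processed pseudogene Atp6v0c-ps2, which held 8.55% to 10.8% of the counts of both together. Reads of the 2 cannot be fully separated, and adding the pseudogene's counts to Atp6v0c moved no ratio of group means by more than 0.0066 on the log2 scale.

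Atp6v0d1 (chr8:105524465-105566047, minus strand) encodes subunit d, which couples the ring to the central stalk. It was at 61.2, 68.9, 64.6 and 64.6 CPM in WT with DMSO, 113.5, 120.6, 118.9 and 131.8 after torin1 and 135.8, 144.5, 139.2 and 123.0 after MK-8722. Both drugs raised it, by 1.87-fold (0.90 ± 0.06 SE, adjusted p = 7.98e-12) and 2.09-fold (1.06 ± 0.06 SE, adjusted p = 2.79e-12). In DKO the levels were 62.9, 58.4, 66.0 and 62.1 CPM with DMSO, 57.0, 52.3, 56.6 and 49.8 after torin1 and 63.5, 68.3, 65.5 and 60.7 after MK-8722. The torin1 libraries were all below those with DMSO, by a log2 fold change of -0.21 (adjusted p = 0.0036) that stayed under the fold threshold, and the MK-8722 libraries overlapped them. Under DMSO the genotypes overlapped too (-0.06, adjusted p = 0.413), whereas DKO differed from WT by -1.17 (log2) under torin1 and -1.07 under MK-8722, with no overlap.

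Atp6v0e (chr17:26663231-26699647, plus strand) encodes the small membrane subunit e. In WT it ranged from 45.6 to 47.9 CPM with DMSO, 37.6 to 40.6 after torin1 and 54.9 to 57.8 after MK-8722. The WT groups did not overlap, but both differences were close to the fold threshold: 0.28 ± 0.04 SE, adjusted p = 1.3e-05 with MK-8722, called, and -0.25 ± 0.04 SE, adjusted p = 9.71e-06 with torin1, not called. The MK-8722 call was lost without WT_MK8722 replicate 1 (0.26) or WT_DMSO replicate 1 (0.26), and the torin1 difference was called under 11 of its alternatives, at -0.27 without passage 11. In DKO it was at 52.8, 49.2, 55.8 and 53.4 CPM with DMSO and 30.2, 31.9, 31.6 and 30.1 with torin1. This fall was the largest of the 8 genes in DKO with torin1, 1.71-fold (-0.77 ± 0.04 SE, adjusted p = 4.99e-13). With MK-8722 the DKO range was 44.7 to 50.5 CPM, which overlapped that with DMSO.

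The a subunit is encoded by alternative genes. Atp6v0a1 (chr11:101009452-101063719, plus strand) was at 55.2, 46.6, 53.8 and 53.2 CPM in WT with DMSO, 55.6, 63.6, 59.1 and 63.6 after torin1 and 80.1, 65.9, 74.6 and 71.7 after MK-8722. Only MK-8722 passed the test, at 0.48 ± 0.09 SE, adjusted p = 0.000341, while torin1 gave 0.21 (adjusted p = 0.0555). In DKO it was at 50.6, 41.0, 50.2 and 49.3 CPM with DMSO, 41.4, 40.9, 39.2 and 31.2 after torin1 and 50.3, 59.0, 57.6 and 44.6 after MK-8722. Torin1 was called lower (-0.32 ± 0.09 SE, adjusted p = 0.00571), although one DMSO library (replicate 2) lay within the torin1 range, and the call was lost without DKO_torin1 replicate 4 (-0.23).

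Atp6v0a2 (chr5:124628576-124724455, plus strand) encodes another isoform of the a subunit. It ranged from 74.4 to 79.1 CPM in WT with DMSO, 58.7 to 59.8 after torin1 and 81.5 to 85.4 after MK-8722. Torin1 lowered it in WT (-0.37 ± 0.03 SE, adjusted p = 1.15e-09) and in DKO (-0.44 ± 0.03 SE, adjusted p = 7.39e-11), where it was at 90.3 to 96.0 CPM with DMSO and 66.2 to 71.1 with torin1. MK-8722 moved it by 0.14 in WT and 0.00 in DKO, neither of them past the fold threshold. Under DMSO it was 0.28 higher in DKO (log2, adjusted p = 8.01e-08). That call was lost with passage as a block (0.25) and without DKO_DMSO replicate 3 (0.25). It was also lost with 10 counts required in every library (0.25) and with library size alone (0.21).

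The balance between these 2 a subunit genes was then measured in each library. The share leaves out Tcirg1, for the a3 subunit, which had more TPM than either gene in every group. Tcirg1 was at 83.1 ± 14.5 TPM in WT with DMSO and 88.8 ± 2.92 in DKO with DMSO (mean ± SD, n = 4). The share therefore does not give the make-up of all a subunit RNA. Atp6v0a1 made up 45.4, 42.3, 47.4 and 45.6% of the summed Atp6v0a1 and Atp6v0a2 TPM in WT with DMSO, 51.6, 55.4, 51.5 and 53.9% with torin1 and 55.2, 48.1, 51.7 and 52.0% with MK-8722. In DKO the shares were 39.3, 35.3, 40.4 and 39.6% with DMSO, 42.3, 42.2, 37.1 and 35.8% after torin1 and 38.8, 44.6, 42.8 and 37.7% after MK-8722. The WT drug libraries were all above the WT DMSO libraries, and the DKO groups overlapped each other. The mean share rose from 45.2 ± 2.11% (SD, n = 4) to 53.1 ± 1.88% with torin1 and 51.8 ± 2.89% with MK-8722 in WT (exact two-sided permutation p = 0.0286 each, the smallest that 4 against 4 allow, adjusted p = 0.04 over 7 comparisons). In DKO it was 38.6 ± 2.26%, 39.4 ± 3.39% and 41.0 ± 3.26% (exact permutation p = 0.771 after torin1 and 0.286 after MK-8722). DKO minus WT was -6.52 percentage points under DMSO, -13.8 under torin1 and -10.8 under MK-8722 (exact permutation p = 0.0286 and adjusted p = 0.04 for each). Whether the shift with a drug differs between genotypes was not tested. These permutations did not match libraries by passage, and passage was not tried as a block for the share.

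**Figure D3:**
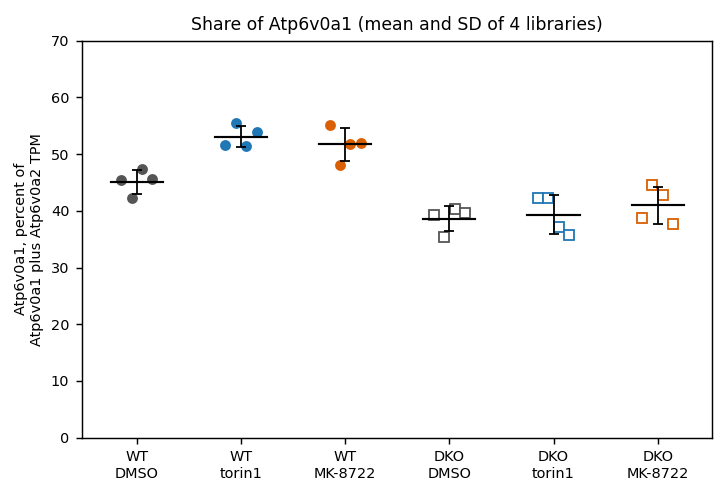
Atp6v0a1 as a percent of the summed Atp6v0a1 and Atp6v0a2 TPM (y axis) in each library, by genotype and treatment; bars are the mean and SD of 4 libraries. WT rose from a mean of 45.2% with DMSO to 53.1% with torin1 and 51.8% with MK-8722, and the 3 DKO means lay between 38.6% and 41.0%.

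The accessory genes were both higher in DKO than in WT with DMSO alone. Atp6ap1 (chrX:74297097-74304721, plus strand), which encodes the glycoprotein Ac45, was at 149.8, 151.7, 149.8 and 149.8 CPM in WT with DMSO and 284.0, 314.7, 308.2 and 304.9 in DKO with DMSO, 2.02-fold higher in DKO (1.01 ± 0.04 SE, adjusted p = 3.92e-16). The difference was also called under torin1 (0.63) and MK-8722 (0.59). In WT it was at 167.3, 170.2, 180.9 and 174.8 CPM with torin1 and 202.8, 208.4, 210.4 and 203.6 with MK-8722. Both groups were above DMSO, and the MK-8722 difference was called (0.46 ± 0.04 SE, adjusted p = 2.82e-09) while the torin1 difference of 0.21 (adjusted p = 5.29e-05) fell short of the fold threshold. In DKO it ranged over 252.1 to 275.7 CPM with torin1, all below DMSO (-0.17, adjusted p = 0.000327, not called), and 290.2 to 318.4 with MK-8722.

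Atp6ap2 (chrX:12587801-12617049, plus strand) encodes the prorenin receptor. In WT it was at 28.5, 29.8, 29.1 and 31.2 CPM with DMSO, 56.1, 61.4, 69.1 and 70.7 after torin1 and 67.5, 67.4, 70.5 and 71.9 after MK-8722. Both drugs raised it, by 2.17-fold (1.12 ± 0.06 SE, adjusted p = 6.04e-13) and 2.34-fold (1.22 ± 0.06 SE, adjusted p = 6.14e-13), and their ranges overlapped each other. In DKO it was at 75.3, 81.3, 81.1 and 76.8 CPM with DMSO, 73.1, 66.0, 76.1 and 74.4 after torin1 and 86.6, 79.3, 88.4 and 83.6 after MK-8722. DKO cells with DMSO were above all WT libraries of any treatment, 2.65-fold over WT with DMSO (1.41 ± 0.06 SE, adjusted p = 5.8e-15), and neither drug gave a call there (-0.12, adjusted p = 0.0936 and 0.10, adjusted p = 0.237). Of the 52-base words of its leading transcript, 2.51% occur in another gene.

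Between genotypes, 3 of the 8 were called higher in DKO and 0 lower under DMSO (all genes: 23.5% and 24.6%), namely Atp6ap1, Atp6ap2 and Atp6v0a2. Under torin1, Atp6ap1 was higher and 5 genes were lower (all genes: 24% and 27.8%): Atp6v0d1 (-1.17 ± 0.06 SE, adjusted p = 5.61e-14), Atp6v0b (-1.15), Atp6v0a1 (-0.66), Atp6v0c (-0.60) and Atp6v0e (-0.34). Under MK-8722, Atp6ap1 and Atp6ap2 were higher and 4 genes lower (all genes: 23.3% and 25.4%): Atp6v0b (-1.13 ± 0.06 SE, adjusted p = 1.58e-13), Atp6v0d1 (-1.07), Atp6v0c (-0.54) and Atp6v0a1 (-0.47). Under both drugs Atp6ap1 stood above WT, and every core gene called stood below it. The core gene Atp6v0a2 was above WT, by 0.21 under torin1 and 0.14 under MK-8722 (log2). Both values were past the adjusted p but under the fold threshold. The Atp6ap2 call under MK-8722 (0.28, adjusted p = 0.000218) was lost without the passage 11 WT libraries (0.25), without WT_MK8722 replicate 1 (0.26) or replicate 2 (0.26) and with library size alone (0.21). Atp6v0e under MK-8722 (-0.23, adjusted p = 2.41e-05) was under the fold threshold and became a 5th lower gene without the passage 11 WT libraries (-0.27) and with library size alone (-0.31).

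The response to each drug was then compared between genotypes as the log2 fold change in DKO minus that in WT. For torin1, 7 of the 8 genes had a lower response in DKO and 0 a higher one, where 6.33% of all genes had a lower and 4.68% a higher response. Atp6v0b had the largest difference (-1.41 ± 0.08 SE, adjusted p = 1.1e-10), followed by Atp6ap2 (-1.23 ± 0.08 SE, adjusted p = 8.15e-10) and Atp6v0d1 (-1.11 ± 0.08 SE, adjusted p = 2.27e-09). Atp6v0a1 (-0.53, adjusted p = 0.00806), Atp6v0e (-0.52, adjusted p = 1.05e-06), Atp6v0c (-0.48, adjusted p = 1.01e-07) and Atp6ap1 (-0.38, adjusted p = 2.29e-05) were also called. Atp6v0a1 and Atp6ap1 were not called in a test against a fold change of 1.2. The response of Atp6v0a2 differed by -0.07 with a 95% interval of -0.16 to 0.02 (adjusted p = 0.334). The median over the 8 was -0.53, beside -0.01 over all genes.

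For MK-8722, 6 of the 8 responses were lower in DKO and 0 higher (all genes: 4.08% and 1.42%), with a median of -0.42 beside 0.01. The values were -1.38 ± 0.08 SE, adjusted p = 1.32e-10 for Atp6v0b, -1.12 for Atp6ap2, -1.02 for Atp6v0d1, -0.42 for Atp6v0c, -0.42 for Atp6ap1 and -0.41 for Atp6v0e. The Atp6v0e response was not called in a test against a fold change of 1.2. Atp6v0a1 (-0.34, 95% interval -0.61 to -0.06, adjusted p = 0.155) and Atp6v0a2 (-0.14, -0.23 to -0.04, adjusted p = 0.0783) did not pass. With passage as a block the Atp6v0a1 response passed (-0.34). The responses to the 2 drugs share their DMSO libraries.

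**Figure D4:**
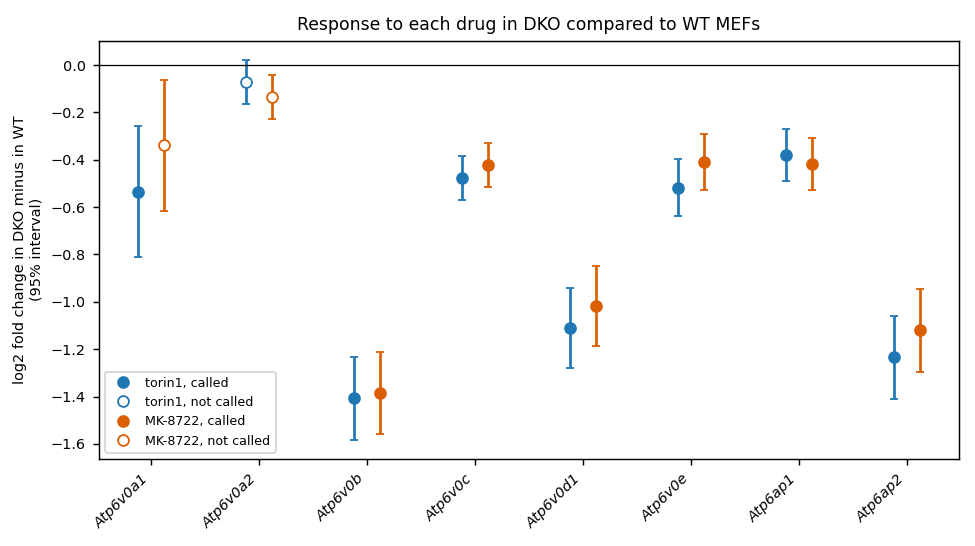
Difference between the log2 fold change in DKO and in WT (y axis) of each gene for torin1 (blue) and MK-8722 (orange), with 95% intervals; filled points were called. Atp6v0b, Atp6v0d1 and Atp6ap2 lay at or below -1.02 with either drug, and Atp6v0a2 lay nearest 0.

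The drugs were also compared directly, without the DMSO libraries. Torin1 was below MK-8722 in all 8 genes in WT, with 5 called lower and 0 higher (all genes: 20% and 24.9%). In DKO, torin1 was again below MK-8722 in all 8, with 5 called lower and 0 higher (all genes: 19.3% and 21.1%). The 5 were Atp6v0a1, Atp6v0a2, Atp6v0b, Atp6v0c and Atp6v0e in each genotype, and the 2 comparisons share no library. The log2 differences in WT and DKO were -0.76 and -0.78 for Atp6v0b, -0.62 and -0.68 for Atp6v0c, -0.53 and -0.64 for Atp6v0e, -0.51 and -0.44 for Atp6v0a2, and -0.27 and -0.47 for Atp6v0a1. The SE of these values was 0.03 to 0.09. The Atp6v0a1 call in WT was lost without WT_torin1 replicate 1 (-0.26) or WT_MK8722 replicate 1 (-0.24). It was also lost with 10 counts required in every library (-0.25) and with library size alone (-0.20).

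A test of whether this difference between drugs itself differs between DKO and WT, added after these values were seen, called 0 of the 8 genes, where 6.23% of all genes were called higher and 4.84% lower. None of the 8 had an unadjusted p under 0.05 in edgeR, and DESeq2 and limma voom called 0 too. The estimates ran from -0.20 for Atp6v0a1 (95% interval -0.47 to 0.08) to 0.06 for Atp6v0a2 (-0.03 to 0.16). For Atp6v0b the interval was -0.20 to 0.15 and for Atp6v0c -0.15 to 0.04. A p that misses the threshold does not show that the genotypes are equal here, and the intervals give the differences these data allow.

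**Figure D5:**
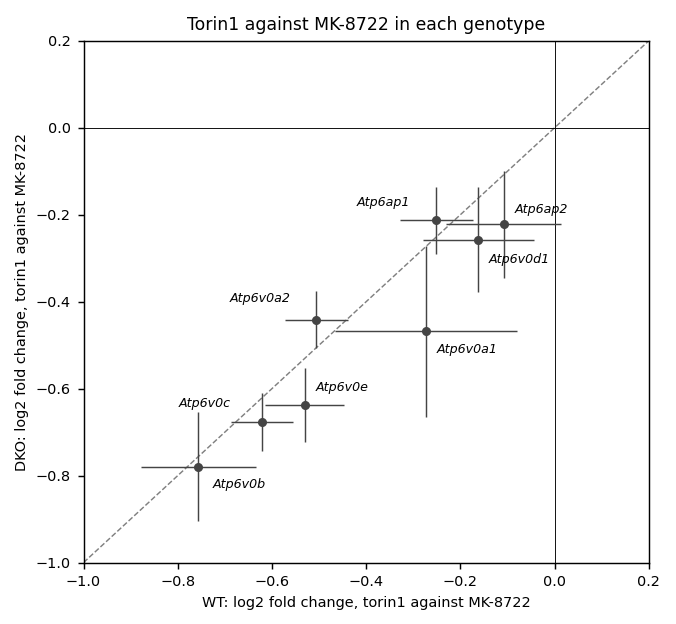
Log2 fold change of torin1 against MK-8722 for each gene in WT (x axis) and in DKO (y axis), with 95% intervals; the dashed line marks equal values. All 8 genes lay below 0 on both axes, between -0.76 (Atp6v0b) and -0.11 (Atp6ap2) in WT and between -0.78 (Atp6v0b) and -0.21 (Atp6ap1) in DKO.

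Transcript usage was examined as the share of a gene's TPM in its most abundant transcript. The leading transcript was protein coding for all 8 genes. Its share ranged over the libraries from 26.9% to 39.0% for Atp6v0a1, which spread its TPM over 6 transcripts averaging at least 1 TPM, and from 96.1% to 99.4% for Atp6v0d1. Atp6v0a2 had 50.02% to 63.9% in its leading transcript, and its next transcript was annotated as subject to nonsense-mediated decay, with a mean of 16.05% in WT with DMSO. None of 56 comparisons (8 genes in 7 contrasts) passed, with 0 at an exact permutation p under 0.05 before adjustment. With estimated counts in place of TPM, 1 comparison had an exact permutation p of 0.0286 and 0 passed after adjustment. It was Atp6v0e with torin1 in WT, 79.2% against 83.9% with DMSO. Since 0.0286 is the smallest p that 4 against 4 allow, a single comparison could not pass an adjustment over 56. The adjusted result therefore does not show that transcript usage was unchanged.

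Other genes that can stand in for V0 subunits were compared from a list chosen with the members. Tcirg1, which encodes the a3 subunit, rose with both drugs in both genotypes, by 0.60 ± 0.13 SE, adjusted p = 0.000284 with torin1 and 0.56 (adjusted p = 0.00167) with MK-8722 in WT and 0.40 (adjusted p = 0.0103) and 0.39 (adjusted p = 0.0312) in DKO. Its response did not pass the test of a difference between genotypes (-0.20 for torin1, 95% interval -0.58 to 0.17). Atp6v0a4, for the a4 subunit, was at 9.1 to 11.2 CPM in WT and 0.5 to 1.1 in DKO with DMSO (-3.69 ± 0.20 SE, adjusted p = 1.85e-13). Atp6v0e2, for an alternative e subunit, was at 14.1 to 17.2 and 4.6 to 6.3 CPM (-1.60 ± 0.11 SE, adjusted p = 7.86e-12). Atp6v0d2, which encodes a d subunit known from osteoclasts, had 0 counts in every library.

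Of the 13 genes of the cytosolic V1 sector, 10 were tested. In WT, torin1 raised 6 and lowered 0, and MK-8722 raised 8 and lowered 0 (all genes: 26.6% and 20.5% with torin1, 10.3% and 5.87% with MK-8722). In DKO, torin1 raised 1 and lowered 4 (all genes: 23% and 20.2%), and none was called with MK-8722 (all genes: 5.47% and 3.21%), where Atp6v1h, Atp6v1e1 and Atp6v1d had unadjusted p values of 0.0106, 0.00684 and 0.0438. In DKO, 8 had a lower response to torin1 and 8 a lower response to MK-8722, with 0 higher for either drug (all genes: 6.33% lower for torin1 and 4.08% for MK-8722), and medians of -0.58 and -0.63 beside -0.01 and 0.01 over all genes. Atp6v1d, for a central stalk subunit, had the lowest response to each drug (-1.0 ± 0.10 SE, adjusted p = 3.28e-07 for torin1 and -1.15 ± 0.10 SE, adjusted p = 4.16e-08 for MK-8722). Its level in WT was 29.6 ± 2.26 CPM with DMSO and 73 ± 4.78 with MK-8722 (mean ± SD, n = 4), and in DKO 32.5 ± 2.87 and 36.2 ± 3.54. Atp6v1b2, a subunit of the ATP-hydrolysing head, followed for torin1 (-0.85, adjusted p = 4.55e-10), and Atp6v1c1, a peripheral stalk subunit, for MK-8722 (-0.98, adjusted p = 2.73e-10). Atp6v1f was the called gene with the smallest difference for MK-8722 (-0.33, adjusted p = 4.93e-05) and for torin1 (-0.42, adjusted p = 1.02e-06). With DMSO, 2 of the 10 V1 genes were higher and 2 lower in DKO, near the shares over all genes (23.5% and 24.6%).

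Of 7 assembly factors, all tested, torin1 raised 1 and lowered 2 in WT and lowered 5 in DKO, while MK-8722 raised 2 and lowered 1 in WT and lowered 1 in DKO. Over all genes, torin1 raised 26.6% and lowered 20.5% in WT and lowered 20.2% in DKO, and MK-8722 raised 10.3% and lowered 5.87% in WT and lowered 3.21% in DKO. With 7 genes, 1 or 2 calls with torin1 in WT are near these shares. Between genotypes, 5 had a lower response to torin1 in DKO and 2 a lower response to MK-8722, with 0 higher (all genes: 6.33% and 4.08% lower). Wdr7, which works with the DMXL proteins in joining V1 to V0, had -0.91 ± 0.08 SE, adjusted p = 8.45e-08 for torin1 and -0.74 (adjusted p = 1.9e-06) for MK-8722. Rogdi, of the same complex, followed for torin1 (-0.40, adjusted p = 0.0258), and Tmem199, a factor for V0 assembly, for MK-8722 (-0.72, adjusted p = 3.37e-06). Vma21, a chaperone of V0 in the endoplasmic reticulum, had the smallest called difference for torin1 (-0.26, adjusted p = 0.0324).

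Across the 24 libraries, the 5 other genes whose log2 CPM followed the mean of the 8 members (each scaled to unit variance) most closely were Ostm1 (r = 0.957), Lamtor1 (r = 0.933), Itgb1bp1 (r = 0.932), Acot13 (r = 0.932) and Atp6v1e1 (r = 0.931). The libraries share 6 groups, so these r describe the group pattern. Among the members themselves, Atp6v0b followed the mean of the other 7 most closely (r = 0.791), then Atp6v0e (0.763), Atp6v0c (0.708), Atp6v0a1 (0.637), Atp6v0d1 (0.454), Atp6v0a2 (0.419) and Atp6ap2 (0.233), while Atp6ap1 did not follow it (r = -0.004). Within WT alone Atp6ap1 reached 0.965 and within DKO alone 0.813, each over 12 libraries.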

How the data were processed

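RNA was measured in 24 MEF libraries, 4 for each of 6 groups defined by the genotype and treatment labels. Polyadenylated RNA was sequenced as 52-base read pairs. The estimated counts per gene were made by the authors with the nf-core/rnaseq pipeline, in which STAR aligned reads to GRCm38 with Ensembl annotation and salmon quantified transcripts, and the deposited values are not normalized. The TPM values, also deposited by the authors from salmon, are scaled by transcript length and library. Unique molecular identifiers were considered in that pipeline. The study's methods name a removal of batch effects with limma but not the batches, and the labels put every library in batch 1, so no batch was modelled here. The members and lists were chosen with earlier results of these data known.

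Estimated counts were rounded to whole numbers, filtered with filterByExpr (minimum count 10), scaled by TMM and fitted with edgeR 4.0.16 (quasi-likelihood in its edgeR 3 form, R 4.3.3, 18 residual degrees of freedom). Adjusted p-values are Benjamini-Hochberg values over 15401 genes for each of 12 contrasts, the last of which was added after values were seen. The fit was tested on simulated data. Shares were compared by exact permutation over libraries, without matching by passage (scipy 1.17.1). Named genes were all members, Tfeb and Tfe3, all tested V0 isoforms, and in the V1 and assembly lists the genes with the lowest 2 responses and the called gene with the highest. Alternatives were other filters, scalings, tests (limma 3.58.1 voom, DESeq2 1.42.0), blocks, thresholds, and fits without single libraries, without passage 11 in WT or without passage 8 in DKO. Total counts limit precision through counting error, with at least 780 counts behind every member value. Across groups, libraries with the same replicate number deviated together little (median r = 0.04 over 60 pairs, 13 above 0.1), so these numbers were not taken to pair the libraries. Libraries of the same genotype and passage deviated together more (median r = 0.16 over 24 pairs, 17 above 0.1), and passage was an alternative block.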

Additional observations from a re-analysis of the deposited data

Results flagged for a closer look

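In 4 of the 54 groups of 4 libraries examined, the gap between one library and the other 3 took up most of the group's own range. Chance alone would give this in about 1 group in 20. They were Atp6v0a1 in DKO_DMSO replicate 2 (41.0 CPM), Atp6ap1 in WT_DMSO replicate 2 (151.7 CPM), Atp6ap1 in DKO_torin1 replicate 2 (252 CPM) and Atp6ap1 in DKO_MK8722 replicate 2 (290.2 CPM). The Atp6ap1 libraries all came from passage 11, and the Atp6v0a1 library came from passage 8. For Atp6ap1 in WT_DMSO the gap itself was small, since the other 3 libraries were all at 149.8 CPM.

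The responses to a drug that differed between DKO and WT in edgeR's test of the difference itself were, for torin1, -1.41 for Atp6v0b, -1.23 for Atp6ap2, -1.11 for Atp6v0d1, -0.53 for Atp6v0a1, -0.52 for Atp6v0e, -0.48 for Atp6v0c and -0.38 for Atp6ap1. For MK-8722 they were -1.38 for Atp6v0b, -1.12 for Atp6ap2, -1.02 for Atp6v0d1, -0.42 for Atp6v0c, -0.42 for Atp6ap1 and -0.41 for Atp6v0e.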

How the results depend on the processing

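Of the 54 calls on single genes, 45 held under every alternative run for them. A test against a fold change of 1.2 took away each of the others. Against DMSO these were Atp6v0a1 and Atp6v0e with MK-8722 in WT and Atp6v0a1 with torin1 in DKO. Among the responses they were Atp6v0a1 and Atp6ap1 for torin1 and Atp6v0e for MK-8722. The rest were Atp6v0a2 for DKO against WT under DMSO, Atp6ap2 under MK-8722, and Atp6v0a1 for torin1 against MK-8722 in WT. Of 2352 fold changes under alternatives, 2266 kept direction and side of the threshold, 24 lost and 49 gained a call, and 13 turned sign, none of them called. Without the fold threshold (adjusted p alone), the counts became 3 lower with torin1 in WT, 1 higher and 1 lower with MK-8722 in DKO, 5 higher and 1 lower for DKO against WT under DMSO, 3 higher under torin1 and 5 lower under MK-8722, and 8 lower for torin1 against MK-8722 in DKO. Further calls gained were Atp6ap1 (0.21) with torin1 and Atp6v0a2 (0.14) with MK-8722 in WT. In DKO, Atp6v0d1 (-0.21) and Atp6ap1 (-0.17) were gained with torin1. Atp6v0d1 (-0.16) and Atp6ap1 (-0.25) were gained for torin1 against MK-8722 in WT, and Atp6v0a2 (0.14) for DKO against WT under MK-8722. Scaling by library size alone gave 5 higher with torin1 in WT, adding Atp6v0a1 (0.30) and Atp6ap1 (0.30), and 1 higher and 5 lower for DKO against WT under MK-8722, where Atp6v0e (-0.31) was added. It moved the median of all genes for DKO against WT under torin1 from -0.04 to -0.16 and the all-gene calls with torin1 in WT from 4100 higher and 3153 lower to 5021 and 2337. The same scaling gave 2629 higher and 5623 lower for DKO against WT under torin1 (3692 and 4283 with TMM), 472 and 1306 for the torin1 response (721 and 975), 4621 and 2345 for torin1 against MK-8722 in WT (3833 and 3083), and 701 and 1105 for its difference between genotypes (960 and 745).

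Torin1 lowered 2 genes in WT, the second being Atp6v0e, with no filter, DESeq2 size factors, a transcript length offset, only the groups compared or DESeq2's Wald test, and 3 without passage 11 in WT. Leaving out single libraries gave 1 to 2, with 2 without WT_torin1 replicate 1, 2 or 3 or WT_DMSO replicate 1. For DKO against WT under MK-8722, 1 was higher in a test against a fold change of 1.2 or without passage 11 in WT, which also made 5 lower, and single libraries left out gave 1 to 2, with 1 without WT_MK8722 replicate 1 or 2. Torin1 against MK-8722 was called for Atp6ap1 in WT without WT_MK8722 replicate 1 (-0.27) or 4 (-0.26) or WT_torin1 replicate 3 (-0.29). It was called for Atp6v0d1 in DKO without DKO_MK8722 replicate 1 (-0.27) or 4 (-0.28) or DKO_torin1 replicate 1 (-0.28) or 3 (-0.27).

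Values that turned sign lay near 0. Atp6v0a2 with MK-8722 in DKO was -0.00886 with no filter and -0.0585 with a transcript length offset, and -0.018 to 0.0208 with single libraries left out. For the difference between drugs between genotypes, Atp6ap1 was -0.0133 with library size alone and -0.0218 with a transcript length offset, and Atp6v0b was -0.068 to 0.0416 with single libraries left out. The cause of these changes was not tested. With the replicate number as a block, Atp6v0b with torin1 in WT was 0.79, and this block changed no call on the 8 genes. Passage as a block changed the calls on Atp6v0a2 and Atp6v0a1 given in the report, and raised the number of all genes called higher in the MK-8722 response from 218 to 486 and lower in the difference between drugs between genotypes from 745 to 1263. With 3 libraries against 4 the exact test of shares cannot reach 0.05, so the Atp6v0a1 share without single libraries is a value with no test, and transcript shares without single libraries were not run.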

Other observations

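Some V-ATPase genes outside the members, chosen after their values were seen, showed a difference between torin1 and MK-8722 that itself differed between DKO and WT. Of 10 V1 genes tested, 1 was called higher and 0 lower. Of 7 assembly factors, 1 was called higher and 1 lower, and of 3 V0 isoforms 0 were called. Over all genes 6.23% were called higher and 4.84% lower, and with so few genes the counts are near these shares. Tmem199, a factor for V0 assembly, had 0.42 ± 0.09 SE, adjusted p = 0.0019, and Atp6v1c1, of the V1 peripheral stalk, had 0.28 ± 0.06 SE, adjusted p = 0.00433, both higher in DKO. Rogdi had -0.60 ± 0.12 SE, adjusted p = 0.00179, which was lower in DKO. Ccdc115, which works with Tmem199, was the one assembly factor called with MK-8722 in DKO (-0.47 ± 0.08 SE, adjusted p = 0.000201).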
